A study of Mus musculus with 2 samples.

Results

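The mitochondrial genome encodes 7 subunits of complex I (mt-Nd1, mt-Nd2, mt-Nd3, mt-Nd4, mt-Nd4l, mt-Nd5 and mt-Nd6) and 3 subunits of complex IV (mt-Co1, mt-Co2 and mt-Co3). These 10 genes, of 32285 in the count table, were followed through brain cells of mice with the Disc1 LI/LI genotype and of their Disc1 WT/WT littermates. They were taken by symbol and chosen by their share of UMIs per cell, which had been seen to differ between cells of these libraries, so the values below are descriptions without a test. Brains of 6 male mice homozygous for the locus impairment (LI) allele of Disc1, and of 6 male wild-type (WT) littermates, were pooled by genotype at 23 weeks, which gave 1 library each, called LI and WT below. The allele is carried in every cell of the body, and the labels give no other allele or treatment. Both pools were dissociated with actinomycin D, which stops new transcription, and CD11b+ cells of low CD45 were sorted. A UMI tags 1 captured transcript, so that amplified copies are counted once.

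Complex I takes electrons from NADH and is the entry point of the respiratory chain, and complex IV passes them to oxygen. Both pump protons, and both are built from a core encoded in the mitochondrion and from many subunits encoded in the nucleus. The mitochondrial strands are transcribed as long precursors in which tRNAs lie between most of the mRNAs. Removal of these tRNAs releases the mRNAs, which then receive a short poly(A) tail. Microglia hold many mitochondria, whereas mature neutrophils hold few and depend largely on glycolysis.

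The WT library held 33601957 UMIs in 7038 barcodes and the LI library 47731571 UMIs in 7834 barcodes. Disc1 itself had 642 and 22 UMIs, respectively. The libraries shared 12 barcodes. Barcodes with at least 200 genes were kept, without a limit on mitochondrial UMIs, which left 7037 and 7829 cells. Microglia had at least 0.5% of their UMIs from P2ry12, Gpr34, Tmem119, Siglech, Fcrls and Olfml3 and under 1% from S100a8 and S100a9, and were divided at 0.5% of UMIs from the nuclear RNA Malat1. Neutrophils had at least 3% of UMIs from S100a8 and S100a9. All remaining cells form a mixed class. Both libraries are labelled microglia, but 6181 WT cells (87.8%) and 1950 LI cells (24.9%) met the rule for microglia. The Malat1-rich microglia numbered 5740 WT and 1785 LI cells, the Malat1-poor microglia 441 and 165, the neutrophils 116 and 3624, and the other cells 740 and 2255. The microglia genes Cx3cr1 and Sall1, which the rule did not use, summed to 3749.5 UMIs per 1000000 UMIs of the class (CPM) in WT and 3170.4 in LI Malat1-rich microglia.

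The 10 genes are described by their position first, since the ratios between the libraries are later grouped by it. Coordinates are those of the mitochondrial chromosome in mm10 with the GENCODE M21 annotation, from which the sequences were also taken. All are single-exon coding genes. mt-Nd6 lies on the minus strand (chrM:13552-14070) and the others on the plus strand. For 7 of the 10, a tRNA on the same strand begins within 100 bases of the annotated end. These are mt-Nd1 (chrM:2751-3707), mt-Nd2 (chrM:3914-4951), mt-Co1 (chrM:5328-6872), mt-Co2 (chrM:7013-7696), mt-Co3 (chrM:8607-9390), mt-Nd3 (chrM:9459-9806) and mt-Nd4 (chrM:10167-11544). The other 3 are mt-Nd4l (chrM:9877-10173), mt-Nd5 (chrM:11742-13565) and mt-Nd6, for which the next tRNA on the same strand lay 1372, 1723 and 6613 bases away. mt-Nd4l is known to share 1 mRNA with mt-Nd4, and their reading frames overlap by 7 bases. mt-Nd5 and mt-Nd6 run toward each other on opposite strands and overlap by 14 bases. The 2 overlaps are shown because they join the genes without a tRNA to their neighbours, with the last bases of mt-Nd4l (chrM:10134-10173) and the first of mt-Nd4 (chrM:10167-10206), then the last of mt-Nd5 (chrM:13526-13565) and of mt-Nd6 (chrM:13552-13591, minus strand). Capitals mark the shared bases, and all are written 5′ to 3′ on the strand of the gene.
mt-Nd4l: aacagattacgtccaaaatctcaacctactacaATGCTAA
mt-Nd4: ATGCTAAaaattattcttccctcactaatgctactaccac
mt-Nd5: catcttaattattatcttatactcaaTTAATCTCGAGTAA
mt-Nd6: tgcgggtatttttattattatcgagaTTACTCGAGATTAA

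The reading frames of mt-Nd4 and mt-Co3, by contrast, run up to the next tRNA and end on a T that becomes a stop codon only when the poly(A) tail is added. Their last bases (chrM:11515-11544 and chrM:9361-9390) are shown with that T in capitals.
mt-Nd4: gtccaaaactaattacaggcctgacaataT
mt-Co3: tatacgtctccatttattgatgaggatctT

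Copies of these genes also lie in nuclear chromosomes. A run of pseudogenes on chromosome 1 matched mt-Co2, mt-Co3 and mt-Nd4l at 100% identity over 681, 783 and 294 bases, and mt-Nd4 at 100% over its first 876 bases. The best copy of mt-Nd5 matched at 92.3% over 1058 bases, that of mt-Nd6 at 93.6%, and that of mt-Nd1 at 76.6%. Another copy of mt-Nd5 matched at 95.2% over 954 bases. None of the copies is listed in the count table, so reads from the stretches of 100% identity cannot be told apart there from those of the mitochondrial gene. For the less alike copies this was not tested.

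Malat1-rich microglia gave 0.660% of their UMIs to the 10 genes in WT (95% interval 0.657 to 0.663) and 0.544% in LI (0.539 to 0.549). All intervals are exact, refer to counting error only and say nothing of the spread between mice, which a single pool per genotype does not show. Malat1-poor microglia had 1.45% and 1.21%, the neutrophils 0.372% and 0.267%, and the other cells 1.14% and 0.853%. As shares of all UMIs, the classes had the same order in both libraries, and each class had the lower share in LI. With another scaling of the libraries (TMM, below) neutrophils come above Malat1-rich microglia in LI but not in WT, and the difference between the libraries turns in neutrophils and other cells.

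The medians over single cells had the same order. The median cell took 0.612% of its UMIs from the 10 genes in WT Malat1-rich microglia, and 9 in 10 cells lay between 0.218% and 1.19%. The median was 1.44% in Malat1-poor microglia, 0.252% in neutrophils and 1.10% in other cells. In LI the medians were 0.487%, 1.14%, 0.142% and 0.836%. The median of LI neutrophils lies between the median cell (0.111%) and the summed share (0.155%) of LI cells rich in hemoglobin (below). It is not read as a level of expression. The ranges of the 2 microglia classes overlapped, and those of the 2 libraries overlapped in every class. Among neutrophils, 2 of 116 WT cells and 269 of 3624 LI cells (7.42%) had no UMI from any of the 10 genes, with medians of 4844.5 and 4193 UMIs per cell.

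**Figure D1:**
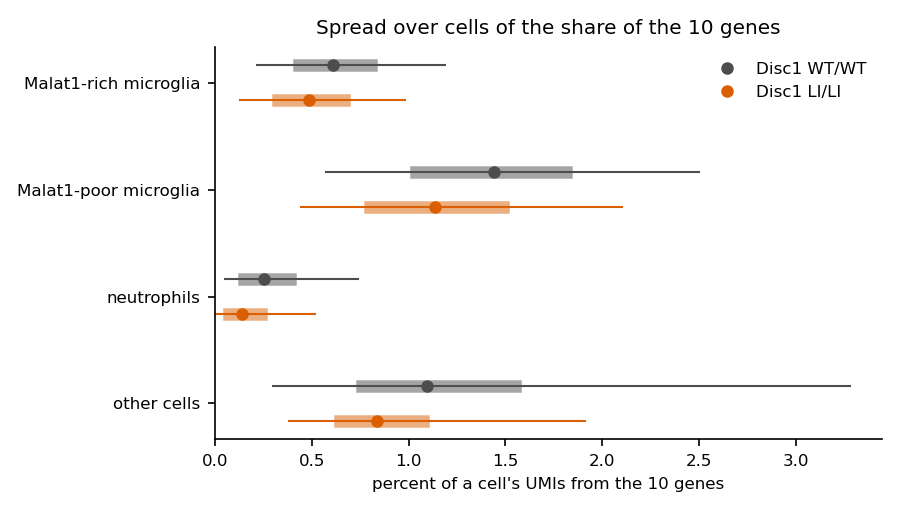
Percent of the UMIs of a cell that come from the 10 genes (horizontal axis) for the 4 classes of cells in each library. Points are medians over cells, thick bars the interquartile range and thin lines the 5th to the 95th percentile, with medians of 1.44% and 1.14% in Malat1-poor microglia and of 0.252% and 0.142% in neutrophils.

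Within the 10, complex IV took more UMIs than complex I in every class, and the balance differed between classes more than between the microglia. In Malat1-rich microglia the ratio of complex IV to complex I UMIs was 1.42 in WT and 1.75 in LI. Malat1-poor microglia had nearly the same ratios, 1.47 and 1.79. The ratio was 2.74 and 4.15 in neutrophils and 1.99 and 3.18 in other cells. It does not depend on how the libraries are scaled. It was higher in LI in all 4 classes, with intervals that did not overlap between the libraries in any of them. In neutrophils with little microglia RNA (below) the libraries lay closer, at log2 ratios of 2.04 and 2.18 against 1.46 and 2.05 in all neutrophils.

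mt-Co1, the catalytic core subunit of complex IV, supplied 26.1% of the UMIs of the 10 genes in WT and 27.3% in LI Malat1-rich microglia. It supplied 37.7% and 40.5% in neutrophils. mt-Nd4, a proton-pumping subunit of complex I, supplied 15.3% and 15.2% in Malat1-rich microglia and 11.6% and 9.81% in neutrophils. mt-Nd5, the largest mitochondrially encoded subunit of complex I and another of its proton pumps, supplied 6.52% and 3.36% in Malat1-rich microglia, 5.14% and 2.83% in Malat1-poor microglia, 4.02% and 1.70% in neutrophils, and 4.77% and 2.32% in other cells. Its share was thus lower in LI in each class, and the intervals of the 2 libraries were apart in each. In neutrophils the WT share rests on 100 UMIs of mt-Nd5. Over the alternative settings listed below it went from 2.64% to 4.02%, and the LI share from 1.55% to 1.72%.

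**Figure D2:**
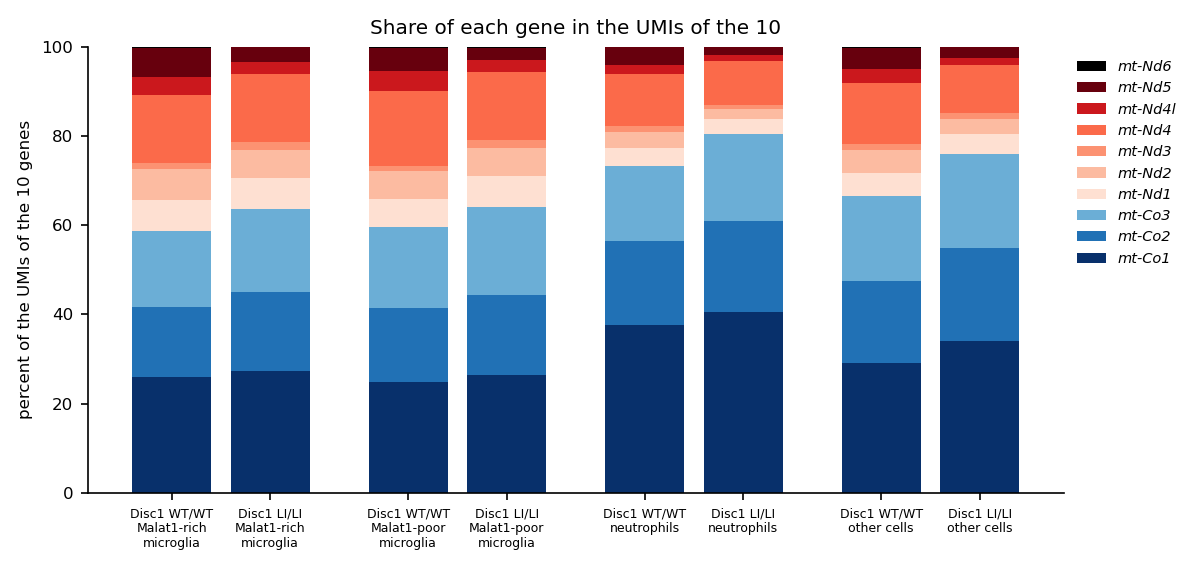
Share of each gene in the UMIs of the 10 (vertical axis, percent, from 0 to 100) for each class and library. Blue segments are complex IV and red to black segments complex I, and the share of mt-Nd5 is 6.52% and 3.36% in Malat1-rich microglia of WT and LI.

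Per kilobase of gene, mt-Co2, which holds the copper center that accepts electrons, ranked first in all 8 combinations of class and library, from 795 CPM per kilobase in LI neutrophils to 3483 in WT Malat1-poor microglia. mt-Co1 and mt-Co3 shared ranks 2 and 3, mt-Nd4 and mt-Nd4l ranks 4 and 5, and mt-Nd1 had rank 6 throughout. mt-Nd5 ranked 9 and mt-Nd6, the only mRNA of the light strand, ranked 10 in all 8. In WT Malat1-rich microglia, mt-Nd6 had 18.2 CPM per kilobase against 236 for mt-Nd5. These ranks use the length of the gene, although the kit counts transcripts from their 3′ ends.

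The 10 genes differed in how far their levels spread over the 8 combinations. The complex IV genes spread least, by 3.32-fold for mt-Co1 (1084 to 3595 CPM), 4.38-fold for mt-Co2 and 4.99-fold for mt-Co3. The spread was 8.80-fold for mt-Nd3, 9.23-fold for mt-Nd4 and 10.4-fold for mt-Nd1, all subunits of the membrane arm of complex I. mt-Nd2 spread by 15.0-fold, mt-Nd5 by 16.3-fold, mt-Nd4l by 17.6-fold and mt-Nd6 by 25.8-fold. The lowest value of each of the 10 genes was that of LI neutrophils, where S100a8 and S100a9 took 31.0% of UMIs. These spreads therefore depend on how the sums are scaled. The lowest value of mt-Nd6 rests on 23 UMIs.

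**Figure D3:**
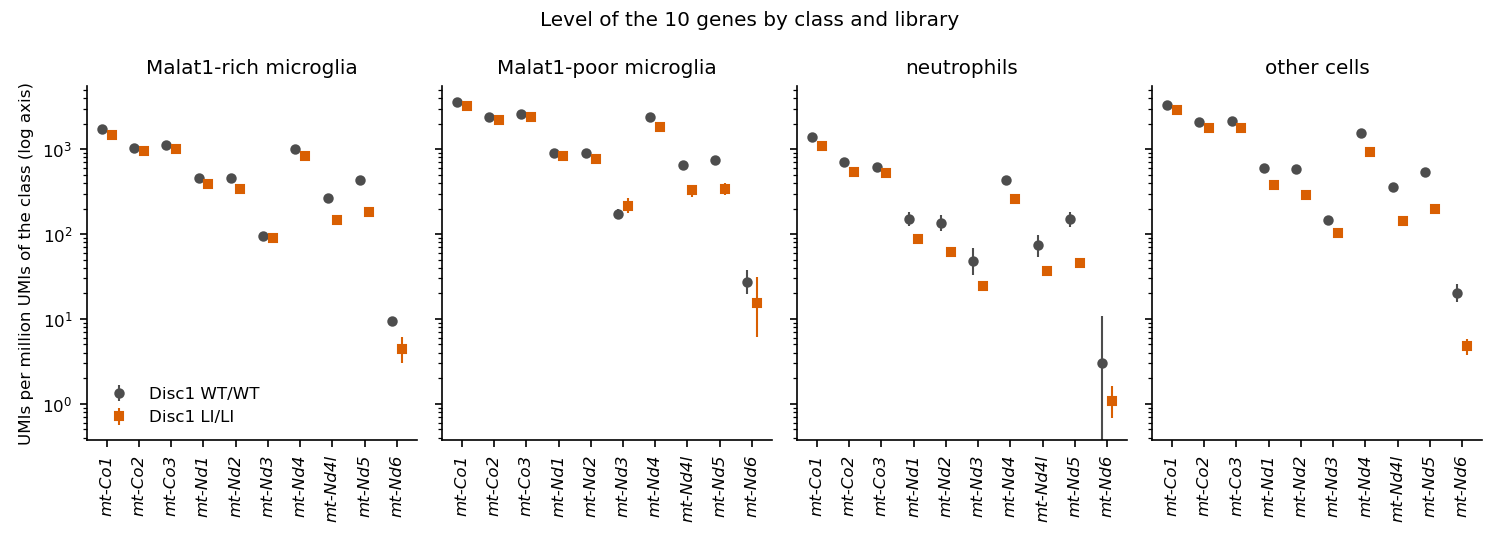
CPM of the class (vertical log axis) for each of the 10 genes in the 4 classes. Circles are WT, squares are LI, bars are exact 95% intervals for counting error, and the points of the libraries lie close for mt-Co1, mt-Co2 and mt-Co3 and apart for mt-Nd5, which had 430.5 and 183 CPM in Malat1-rich microglia.

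To describe the Malat1-poor microglia, their levels were set against those of Malat1-rich microglia of the same library. The 10 genes together were higher by 1.13 on the log2 scale in WT (1.11 to 1.15) and by 1.16 in LI (1.12 to 1.20). With scaling by TMM, which centers most genes, the ratios were 1.52 and 1.64, so the direction did not depend on scaling. A gene counts here as past the fold where it differs at least 1.5-fold and has at least 50 CPM in at least 1 of the 2 sums. A gene that reaches 50 CPM in 1 sum alone can thus only be higher in that sum. Of the 10 genes, 9 could be counted, and 9 of 9 were higher past the fold in WT, where 7.11% of 3584 genes were. In LI it was 9 of 9 beside 5.71% of 3207 genes. The medians of the 9 were 1.06 and 1.16 beside −0.37 and −0.33 over all genes counted.

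Among the members, mt-Nd5 was the least raised in Malat1-poor microglia of both libraries, by 0.79 in WT (0.69 to 0.88) and 0.91 in LI (0.66 to 1.15). mt-Nd4l was highest of the 9 in WT at 1.31, mt-Nd3 in LI at 1.26. mt-Nd6, with under 50 CPM, had 1.54 (1.01 to 2.04) and 1.80 (0.38 to 3.00). mt-Cytb of complex III and mt-Atp6 of complex V, which are outside the 10, had 1.38 and 1.23 in WT.

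Few cells lay near the Malat1 limit. In WT, 418 microglia had under 0.1% Malat1, whereas 16 had 0.1 to 0.25%, 7 had 0.25 to 0.5% and 13 had 0.5 to 1%. The 10 genes took 1.44% of UMIs in the lowest of these groups and 0.754% in the 13 cells. Among cells with 1 to 2%, 2 to 4% and over 4% Malat1, the share was 0.784%, 0.657% and 0.562%. In LI the share was 1.23% under 0.1% Malat1 and 0.713%, 0.627%, 0.544% and 0.448% in the 4 groups above 0.5%. Just below the limit, between 0.4% and 0.5% Malat1, the share was 2.28% in 2 WT cells and 0.918% in 5 LI cells. Just above it, up to 0.6%, it was 0.990% in 4 and 0.698% in 5. At the microglia limit, cells with 0.4 to 0.5% of UMIs from the microglia genes had 1.07% and 0.823% of UMIs from the 10 genes, and cells with 0.5 to 0.6% had 1.12% and 0.864%. At the neutrophil limit, cells with 2 to 3% from S100a8 and S100a9 had 0.581% (3 cells) and 0.696% (18), and cells with 3 to 4% had 0.187% (1) and 0.645% (27). Malat1-poor microglia also held 15.5% and 15.4% of UMIs from ribosomal protein genes against 7.81% and 9.52% in Malat1-rich cells, and a median of 2699 and 2413 UMIs per cell against 4347 and 3866. The median cell still held more UMIs of the 10 genes, 41 and 26 against 27 and 19. The part of depth and of ribosomal transcripts in the share was not tested.

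Neutrophils had less of the 10 genes than Malat1-rich microglia when all UMIs were the denominator, but the direction in LI depended on the scaling. The log2 ratio was −0.82 in WT and −1.02 in LI, and −0.30 and 0.37 with TMM scaling. S100a8 and S100a9 alone took 24.9% and 31.0% of the UMIs of neutrophils. The TMM ratio of any gene is higher than the one given here by 0.52 in WT and by 1.39 in LI. Complex I was at −1.45 and −1.93, and complex IV at −0.51 and −0.68, of which complex IV changes direction with TMM and complex I does not. Of 9 members counted, 7 and 8 were lower past the fold, beside 62.7% and 65.9% of all genes, which is close to the background. mt-Co1 was nearest to microglia, at −0.29 and −0.46, and changes direction with TMM, and the lowest were mt-Nd4l (−1.84) in WT and mt-Nd2 (−2.49) in LI.

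Neutrophils of WT carried transcripts of microglia, and the libraries differed less in neutrophils with few of them. Cx3cr1 and Sall1 reached 20.2% of their level in Malat1-rich microglia there, against 3.62% in LI neutrophils. In the 89 WT and 3446 LI neutrophils with under 0.1% of UMIs from the 6 microglia genes, chosen after these values were seen, complex I had 525 and 465 CPM and complex IV 2153 and 2104. The ratios of complex IV to complex I on the log2 scale were 2.04 and 2.18, against 1.46 and 2.05 in all neutrophils.

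Within the neutrophils, those with at least 1% of UMIs from the secondary granule genes Camp, Ltf, Ngp and Lcn2, which immature neutrophils make, were compared with the rest. In the 2072 LI cells with granule transcripts, complex I was lower by 0.55 (0.49 to 0.60) than in the 1552 others, at 466 against 681 CPM. Complex IV hardly differed (−0.01, from −0.04 to 0.02). In WT, with 58 cells in each group, complex I was lower by 0.57 (0.34 to 0.80) and complex IV by 0.19 (0.04 to 0.33). mt-Co1 was higher by 0.16 in the granule group of LI, and mt-Nd2 was lower by 0.76. In LI the median UMIs per cell were 6087.5 with granule transcripts and 2534 without. The 6 microglia genes took 0.0231% of UMIs with granule transcripts and 0.0635% without in LI, and 0.181% and 0.255% in WT. The part of depth and of microglia transcripts in these differences was not tested.

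Depth moved with the share in neutrophils. LI neutrophils with under 2000 UMIs gave 0.127% of them to the 10 genes, those with 2000 to under 4000 gave 0.119%, and those with 8000 and more gave 0.376%. Cells with at least 10% of UMIs from hemoglobin, as in red blood cells, which lose their mitochondria, numbered 3 and 11 and had 0.175% and 0.155%, with 73.8% and 69.1% of their UMIs from hemoglobin. The 11 LI cells also had 6.83% of their UMIs from S100a8 and S100a9. They are thus not free of neutrophil transcripts, and their share is a rough mark and not a measured background. The 384 and 1356 LI neutrophils of the 2 lowest groups, of 3624, are below 0.175% and 0.155%, and their shares are not read as expression. For the LI neutrophils without granule transcripts the 2 measures part. Their median cell had 0.0939%, against 0.111% in the median LI cell rich in hemoglobin. Their summed share was 0.285%, above the 0.155% of those cells. The comparison with the granule group is therefore given as differences in UMIs and not in expression. Malat1-rich microglia had no single order with depth, with 1.08% and 0.658% under 2000 UMIs, 0.579% and 0.462% at 2000 to under 4000, and 0.669% and 0.628% at 8000 and more.

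The series asks how microglia differ when Disc1 is impaired, and the libraries were therefore compared class by class. In Malat1-rich microglia the 10 genes together were lower in LI by 0.28 on the log2 scale (0.26 to 0.29), complex I by 0.46 (0.44 to 0.49) and complex IV by 0.16 (0.14 to 0.18). With TMM scaling the summed ratio was −0.23, complex I −0.41 and complex IV −0.12. The difference was uneven, and the median of the 9 members counted was −0.24, beside −0.12 over all 3610 genes counted.

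mt-Nd5 had 430.5 CPM in WT and 183 in LI Malat1-rich microglia, a log2 ratio of −1.23 (−1.31 to −1.15). Only 0.0278% of the other genes counted had a lower ratio. mt-Nd4l, which helps to form the membrane arm, had 264 and 148 (−0.84, from −0.93 to −0.74), and mt-Nd6, also of the membrane arm, had 9.43 and 4.41 (−1.10, from −1.66 to −0.58). mt-Nd5 and mt-Nd4l were the 2 of 9 members counted that were lower past the fold, beside 12.5% of all genes, and none was higher, beside 1.27%. Transcripts of 6 neutrophil genes (Retnlg, Mmp8, Camp, Ltf, Ngp and Lcn2) reached 0.0168% of their neutrophil level in these microglia in WT and 0.610% in LI, and their part in the ratios was not tested. The next lowest, mt-Nd2, was at −0.43, and mt-Nd3 was at −0.06 with an interval that included 0. mt-Co1 was at −0.21, mt-Co2 at −0.10 and mt-Co3 at −0.15.

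Malat1-poor microglia showed the same 2 genes apart from the others. mt-Nd5 had 743 and 344 CPM (−1.11, from −1.36 to −0.87) and mt-Nd4l 651 and 327 (−0.996, from −1.26 to −0.74). They were again 2 of 9 counted members lower past the fold, near the share of 17.9% of 2728 genes. None was higher, beside 3.96%. Of the other genes counted, 3.72% had a lower ratio than mt-Nd5 and 5.41% a lower ratio than mt-Nd4l. The 10 genes together were at −0.25, complex I at −0.42 and complex IV at −0.14, and with TMM scaling at −0.11, −0.28 and −0.00. mt-Nd3 was at 0.33, with an interval of −0.02 to 0.67 and 99 UMIs in LI, and at −0.75 with a microglia limit of 1% in place of 0.5%, so no direction is read for it.

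In neutrophils the 10 genes were lower in LI by 0.48 relative to all UMIs, but the ratio was 0.44 with TMM scaling and −0.061 in the neutrophils with little microglia RNA. Of 8 members counted, 5 were lower past the fold, all of complex I, beside 35.2% of 2433 genes, and none was higher, beside 6.17%. The median of these 8 was −0.75, and the median over all genes was −0.35. mt-Nd5 had 150 and 45.5 CPM (−1.72, from −2.02 to −1.41), with 5.41% of the other genes counted lower, and −0.82 where microglia RNA was low. mt-Nd1 was at −0.78 in all neutrophils and 0.014 in those cells, and at 0.14 with TMM. mt-Nd2 was at −1.16 and 0.083, and mt-Nd3 at −0.96 and 0.12. Complex I as a whole was at −0.18 in those cells, with an interval of −0.38 to 0.03 that included 0.

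In the other cells the 10 genes were at −0.42, complex I at −0.90 and complex IV at −0.22, and with TMM scaling the sum (0.068) and complex IV (0.26) changed direction while complex I (−0.41) did not. Complex IV also changed direction, to 0.090 (0.077 to 0.103), with a microglia limit of 1%, which moves cells into this class. Of 9 members counted, 5 were lower past the fold, beside 27.9% of 3249 genes, and none was higher, beside 17.7%. mt-Nd5 was at −1.46, mt-Nd4l at −1.34 and mt-Nd2 at −1.02, with 8.62%, 9.94% and 14.7% of the other genes counted lower. mt-Nd6 had 20.3 and 4.74 CPM (−2.10, from −2.57 to −1.63).

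The other cells differ in make-up between the libraries, so groups within them were compared by the marker list with the most UMIs in each cell. Cells led by monocyte markers were 70 in WT and 1291 in LI, and their complex I ratio was −0.50 (−0.59 to −0.42) and complex IV ratio −0.17. Cells led by microglia markers but below the limit of the rule, 437 and 270, had −0.52 and −0.16, and cells led by border macrophage markers, 117 and 22, had −0.41 and −0.15. The T cell-led group, 33 and 47 cells, had −0.15 (−0.30 to 0.01) for complex I and −0.05 for complex IV, both with intervals that included 0. The endothelial-led group had −0.16 (−0.34 to 0.02) for complex I and −0.25 (−0.39 to −0.12) for complex IV. Its ratio of complex IV to complex I UMIs was 1.83 in WT (1.63 to 2.06) and 1.72 in LI (1.54 to 1.91). These intervals overlapped, so no difference in balance is read there. mt-Nd5 was at −1.23 in the monocyte-led, −1.04 in the microglia-led, −0.93 in the macrophage-led and −0.79 in the T cell-led group, with intervals below 0 in each. In the endothelial-led group of 20 and 26 cells it was at −0.34 with an interval that included 0. That group had the highest share of the 10 genes, 2.31% and 1.98%.

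**Figure D4:**
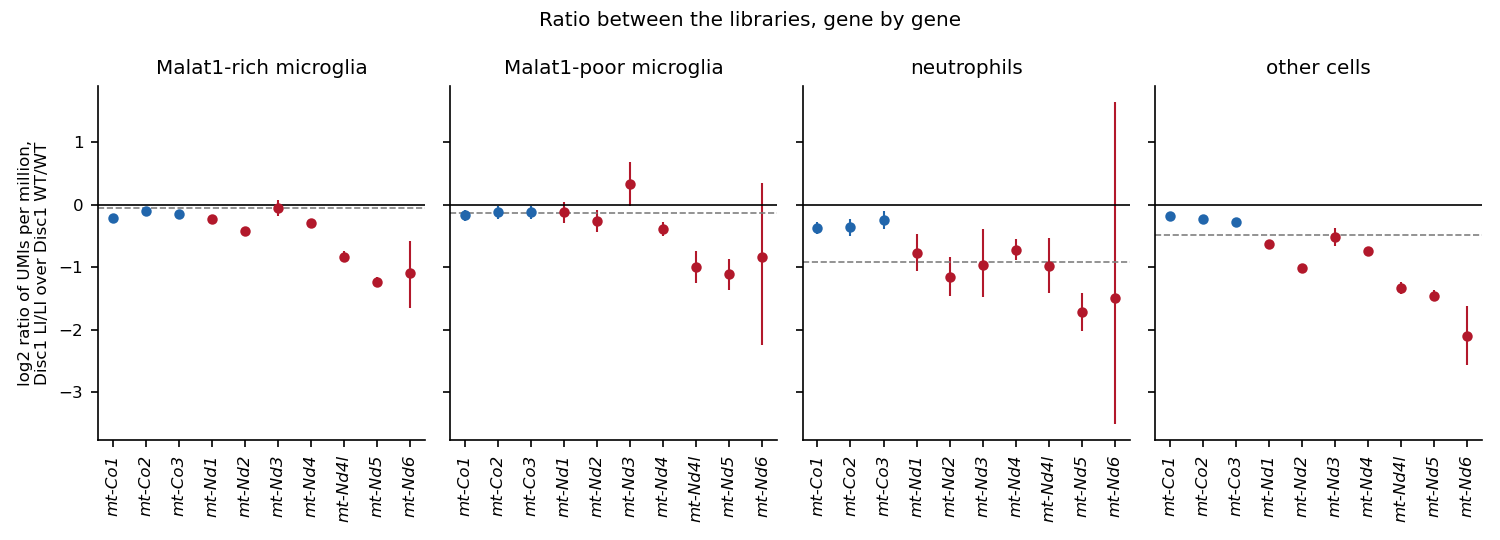
Log2 ratio of CPM, LI over WT (vertical axis), for each gene and class, with complex IV in blue and complex I in red. Bars are 95% intervals for counting error, the solid line is 0, and above the dashed line, which is 0 with TMM scaling, lie the complex IV genes of neutrophils and other cells, mt-Nd1 and mt-Nd4 of neutrophils, and mt-Nd3 and, narrowly, mt-Nd1, mt-Co2 and mt-Co3 of Malat1-poor microglia, whereas mt-Nd5 lies below the dashed line in all 4 classes.

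Ratios between 2 genes of the same cells do not depend on scaling. In Malat1-rich microglia, mt-Nd5 had 42.6 UMIs per 100 of mt-Nd4 in WT (41.7 to 43.5) and 22.1 in LI (20.9 to 23.5). It had 30.7 and 18.6 in Malat1-poor microglia, 34.6 and 17.3 in neutrophils, and 35.1 and 21.5 in other cells. The lower value was in LI in every class, with no overlap of the intervals. WT neutrophils carried microglia transcripts (above), and their part in the value of 34.6 was not tested.

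The UMIs of the 2 genes of the shared mRNA also parted. Because the kit counts transcripts from their 3′ ends, these UMIs are not read as levels of 2 separate transcripts. mt-Nd4l had 26.1 UMIs per 100 of mt-Nd4 in WT and 17.9 in LI Malat1-rich microglia, 26.9 and 17.7 in Malat1-poor microglia, and 23.2 and 15.4 in other cells. In neutrophils it had 17.0 (12.3 to 23.0) and 14.1 (13.1 to 15.2), and these intervals overlapped. mt-Nd6 per 100 of mt-Nd5 was 2.19 and 2.41 in Malat1-rich microglia, with overlapping intervals, and 3.74 and 2.39 in other cells, where they overlapped narrowly. mt-Co2 per 100 of mt-Co3 was 91.6 and 94.7 in Malat1-rich and 90.6 and 90.7 in Malat1-poor microglia.

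The split by position was noticed after the ratios were seen. In Malat1-rich microglia the 7 genes with a tRNA within 100 bases of their end had ratios of −0.43 to −0.06, and the 3 without one −1.23 to −0.84. The ranges were −0.39 to 0.33 and −1.11 to −0.84 in Malat1-poor microglia, and −1.02 to −0.19 and −2.10 to −1.34 in other cells. In Malat1-poor microglia the −0.84 is that of mt-Nd6, with 7 UMIs in LI and an interval of −2.25 to 0.34. In neutrophils the ranges met, with −1.16 to −0.25 and −1.72 to −0.99. Of the 3 other protein genes of this genome, mt-Cytb, which is followed by a tRNA, was at −0.21 in Malat1-rich microglia. mt-Atp8 and mt-Atp6, which share an mRNA in which mt-Atp8 comes first, were at −0.73 and −0.13 there. mt-Atp6 thus lies apart from the other genes without a tRNA. In other cells mt-Atp8 and mt-Atp6 were at −0.78 and −0.30, inside the range of the genes with a tRNA. They were at −1.38 and −0.21 in Malat1-poor microglia, and at −0.03 and −0.42 in neutrophils, with 5 UMIs of mt-Atp8 in WT. The droplet chip was 1 of 2 types that are not given per library, and the chip and the genotype cannot be told apart.

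The nuclear partners of the 10 genes were on the other side of 0. Of 37 nuclear complex I subunits in the list, 34 could be counted in Malat1-rich microglia and all 34 had ratios above 0, beside 39.4% of all 3610 genes. None was higher past the fold, beside 1.27%. Their median of 0.27 is close to the 0.26 of the 200 nuclear genes nearest to the 10 members in length. A median of this size was thus not limited to these subunits, but those 200 genes were not matched to the subunits in length. The highest was the accessory subunit Ndufa3 at 0.50 (91.3 and 129 CPM) and the lowest Ndufa10 at 0.01, with Ndufa1 at 0.46 and Ndufs4 at 0.10 next to them. All 11 nuclear complex IV subunits counted were above 0, with a median of 0.29, from Cox7c at 0.16 and Cox6a1 at 0.20 to Cox6b1 at 0.38 and Cox5b at 0.38. Of 10 assembly factors counted, 1 was higher past the fold (Pet100, a complex IV assembly factor, at 0.63) and 7 were above 0, with Cox17, a copper chaperone, at 0.39, Ndufaf4 at −0.18 and Ndufaf7 at −0.19. Of 28 genes of mitochondrial gene expression 3 could be counted, Slirp at 0.27, Hsd17b10 at 0.19 and Ssbp1 at −0.09.

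In the other classes most of the nuclear subunits lay on the same side. In Malat1-poor microglia 25 of 35 nuclear complex I and 9 of 11 complex IV subunits were above 0, beside 41.5% of all genes, with medians of 0.12 and 0.17, and 3 complex I subunits were higher past the fold, beside 3.96%. In neutrophils it was 23 of 27 and 11 of 11, beside 31.2%, with medians of 0.29 and 0.35. In other cells it was 35 of 35 and 11 of 11, beside 49.1%, with medians of 0.50 and 0.56. The nuclear genes nearest to the members in length had medians of 0.078, 0.26 and 0.40 in these 3 classes. In other cells 13 and 5 of them were higher past the fold, beside 17.7% of all genes.

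Short nuclear genes in general had higher ratios than long ones. Over 3599 genes in Malat1-rich microglia, the ratio and the length of the gene in the genome had a Spearman correlation of −0.66, and the medians of the 899 shortest and the 899 longest of them were 0.20 and −0.47. All 9 members counted were below 0. The correlation was −0.43 in Malat1-poor microglia, −0.54 in neutrophils and −0.43 in other cells. These genes share the same 2 libraries, and the part of gene length in the ratios was not tested.

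Cells with more complex IV transcripts also had more complex I transcripts. Cells of each class were put into 5 groups by their complex IV UMIs per 1000000 other UMIs. In WT Malat1-rich microglia, complex I went from 1575 UMIs per 1000000 other UMIs in the lowest group to 4039 in the highest, and from 1019 to 3073 in LI. In Malat1-poor microglia it went from 3341 to 8397 and from 2228 to 6592. In neutrophils it went from 285 to 1868 and from 143 to 954. Malat1 was lower along these groups in Malat1-rich microglia, from 3.44% to 2.78% in WT and from 3.57% to 2.67% in LI. In LI neutrophils the median UMIs per cell went from 2670 in the lowest group to 8910 in the highest.

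**Figure D5:**
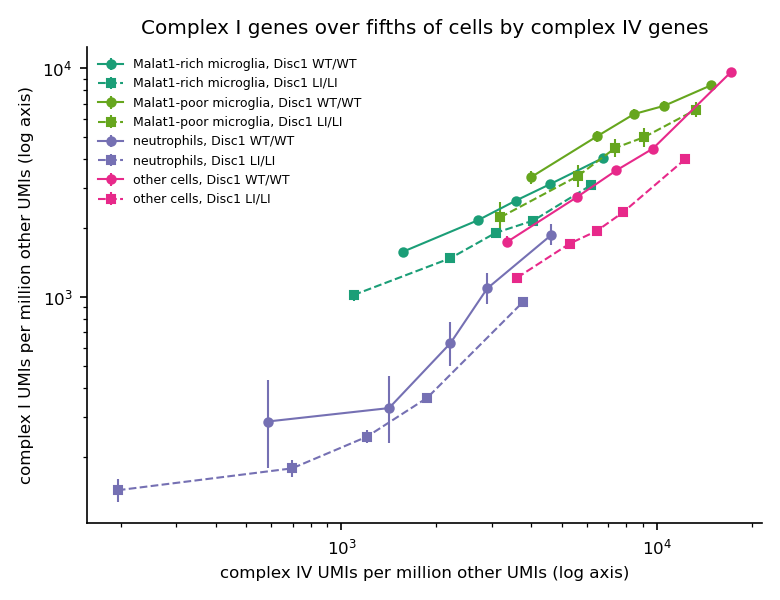
Complex I UMIs against complex IV UMIs, each per 1000000 other UMIs (log axes), over 5 groups of the cells of a class and library ordered by complex IV, with 95% counting intervals on complex I. Complex I increases along each line, from 1575 to 4039 in WT Malat1-rich microglia, and the lines of LI lie below those of WT at like complex IV.

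Over the 8 combinations of class and library, the genes outside the mitochondrial genome whose log2 levels ran most alike to the summed members were Tbca (Pearson r = 0.97), Gnas (0.96), Bag1 (0.95), Cox7a2l (0.95) and B2m (0.95), out of 1060 genes with at least 50 CPM in all 8. Tbca is a tubulin-folding cofactor, Gnas a G protein subunit, Bag1 a co-chaperone, Cox7a2l a factor for joining complexes III and IV, and B2m the light chain of MHC class I. The 8 points come from only 2 libraries. Among the members themselves the lowest correlation over these points was that of mt-Nd5 with mt-Co1 (r = 0.80).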

How the data were processed

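Libraries were assigned to genotypes from their labels. The deposited values are raw UMI counts of each gene in each barcode, which the authors obtained from Cell Ranger 6.1.2 (STAR, mm10). Their processing notes also name Seurat 3.0.1. Counts were summed over the cells of a class and library and divided by all UMIs of these cells. Ratios have 95% Clopper-Pearson intervals, levels exact Poisson and shares exact binomial ones. No test was possible with a single library for each genotype. Doublets were not removed. Counts are not corrected for free RNA.

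The members, classes and gene lists were chosen with earlier results of these data known. All 10 members are named. From each nuclear list the text names the 2 highest and 2 lowest ratios in Malat1-rich microglia, and outside the mitochondrial genome the 5 genes most correlated with the summed members. Ndufb1 is not listed in the table. Positions and sequences came from GENCODE M21, and copies were sought with blastn 2.17.0. TMM factors came from edgeR 4.0.16 (R 4.3.3). Sums and intervals were computed with scipy 1.17.1 and numpy 2.4.6 under Python 3.11.15, tables with pandas 2.3.3, and figures with matplotlib 3.10.9. The intervals of the ratios were tested on simulated Poisson counts, which hold counting error only and no spread between cells or mice.

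Alternatives were cells with at most 10% mitochondrial UMIs or at least 500 genes, leaving out the 5% of barcodes with most UMIs, other denominators, means over cells, thinning to 1000 UMIs, TMM and other class limits. Results for 1 marker gene are not reported here.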

Additional observations from a re-analysis of the deposited data

How the results depend on the processing

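No paired analysis was possible because each genotype has 1 library and the labels carry no replicate numbers. For the same reason no replicate could be left out. Values are log2 ratios of the 10 genes together. TMM scaling moved the ratios of LI over WT by 0.05, 0.14, 0.92 and 0.48 in Malat1-rich microglia, Malat1-poor microglia, neutrophils and other cells, to −0.23, −0.11, 0.44 and 0.068. It gave 1.52 and 1.64 for Malat1-poor over Malat1-rich microglia in WT and LI, and −0.30 and 0.37 for neutrophils over Malat1-rich microglia, the last with the opposite sign. Single members changed sign between libraries as follows. In neutrophils these were mt-Nd1 (0.14), mt-Nd4 (0.19), mt-Co1 (0.54), mt-Co2 (0.55) and mt-Co3 (0.67) with TMM, and mt-Nd1 (0.014), mt-Nd2 (0.083), mt-Nd3 (0.12) and mt-Co2 (0.098) in cells with under 0.1% of UMIs from the microglia genes. In other cells they were mt-Co1, mt-Co2 and mt-Co3, with TMM (0.29, 0.26 and 0.21) and with a microglia limit of 1% (0.12, 0.12 and 0.024). In Malat1-poor microglia they were mt-Nd1, mt-Co2 and mt-Co3 with TMM (0.015, 0.017 and 0.015), and mt-Nd1 (0.084) and mt-Nd3 (−0.75) with a microglia limit of 1%. In Malat1-rich microglia it was mt-Nd3 (0.15) with thinning to 1000 UMIs. The limit of 0.1%, added after the data were seen, gave −0.061 in neutrophils and −0.48 in other cells between libraries, and −1.30 and −1.08 for neutrophils over microglia in WT and LI.

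A microglia limit of 1%, which left 79 and 26 Malat1-poor cells, gave −0.31 in Malat1-rich microglia, −0.59 in Malat1-poor microglia and −0.17 in other cells between libraries, 0.97 and 0.69 for Malat1-poor over Malat1-rich and −0.76 and −0.93 for neutrophils over microglia. A Malat1 limit of 1% gave −0.39 in Malat1-poor microglia, and 1.10 and 0.99 against Malat1-rich ones. A neutrophil limit of 10% gave −0.98 and −1.18 for neutrophils over microglia. Thinning gave −0.80 in neutrophils between libraries, 1.22 and 1.23 for Malat1-poor over Malat1-rich, and −0.98 and −1.495 for neutrophils. The mean over cells gave −0.32, −0.31 and −0.68 in Malat1-rich microglia, Malat1-poor microglia and neutrophils between libraries, and −1.11 and −1.47 for neutrophils over microglia. Without the deepest 5% of barcodes, neutrophils and other cells had −0.63 and −0.44 between libraries, and neutrophils over microglia −0.999 and −1.35. UMIs without mitochondrial, hemoglobin and Malat1 transcripts as denominator gave −0.44 in other cells, 1.10 for Malat1-poor over Malat1-rich in WT and −1.06 for neutrophils over microglia in LI. Without mt-Nd4l, mt-Nd5 and mt-Nd6, added after the data were seen, the sums gave −0.21, −0.19 and −0.35 in Malat1-rich microglia, Malat1-poor microglia and other cells, and −0.75 and −0.98 for neutrophils over microglia. Where no cause is named, the cause was not tested. The other values of the summed genes lay within the counting interval of the value reported.

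mt-Nd5 kept its sign in every class under these alternatives, from −1.31 to −1.19 in Malat1-rich microglia, −1.76 to −0.97 in Malat1-poor microglia, −1.73 to −0.80 in neutrophils and −1.59 to −0.97 in other cells. Low counts limit mt-Nd6, with 2 UMIs in WT neutrophils and 7 in LI Malat1-poor microglia.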

Other observations

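Cells with over 10% mitochondrial UMIs, which most filters remove, fell almost wholly in the mixed class, with 4 WT and 10 LI cells. The 10 genes took 10.5% and 13.6% of their UMIs, and complex IV over complex I was 1.93 and 2.71, beside 1.99 and 3.18 in the whole class. Their median depth was 1769.5 and 671 UMIs. Leaving such cells out changed none of the ratios of the summed genes beyond counting error.

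Cells led by B cell markers (131) and natural killer cell markers (64) were enough for a value in the LI library alone. The 10 genes took 1.17% and 1.07% of their UMIs, and complex IV over complex I was 3.03 and 2.48. Cells led by progenitor markers (106), with a median of 28359 UMIs, had 0.811% and 2.94, and cells led by cycling markers (133) had 0.835% and 3.52. The monocyte-led cells of that library had 0.807% and 3.56.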
